A study of Mus musculus with 34 samples.

Results

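The mouse respiratory chain genes coded in the nucleus were taken as the protein-coding genes on chromosomes 1 to 19 whose symbol begins with Nduf, Sdha to Sdhd, Uqcr, Cox4 to Cox8, Atp5, Cycs or Cyct. The rule used names alone and found 99 of 20665 protein-coding genes: 39 of complex I, 4 of complex II, 8 of complex III, 17 of complex IV, 17 of complex V, both cytochrome c genes and 12 assembly factors. A further 3 genes with such names lie on X and were not members. The complexes were also assigned by name, and Ndufa4 was left in complex I on that ground alone. Open chromatin had been mapped by ATAC-seq in 34 libraries that form 12 groups; the assay uses a transposase, Tn5, that inserts sequencing adapters where DNA is exposed. The material covered 4 stages: cells in meiosis (MS), spermatids that are still round (RS), those that elongate and condense (ES), and cauda epididymal sperm (Sp). SV129 mice aged 8 to 12 weeks, 11 of them pooled in each collection, gave 4 libraries each at MS, RS and ES and 6 at Sp. The 4 libraries were 2 biological replicates with 2 technical repeats each, and the 6 at Sp were biological replicates. C57BL6 GCN5+/+ mice (WT) and C57BL6 GCN5-/- mice (cKO) gave 2 libraries per group. GCN5 (gene Kat2a) is a histone acetyltransferase, and in the cKO its homozygous floxed alleles are deleted by a Cre recombinase under Stra8, a germ cell gene switched on before meiosis. The sedimentation fractions were at least 85% pure by the labels.

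The respiratory chain passes electrons from complexes I and II through complex III and the small carrier cytochrome c to oxygen at complex IV, and complex V uses the proton gradient so formed to make ATP. Most of its subunits are coded in the nucleus, in genes that nearly every cell uses. The testis also has isoforms of its own, among them Cyct, the cytochrome c of male germ cells, and Cox6b2, a complex IV subunit of spermatids and sperm.

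Each group is represented by 1 list of subnucleosome peaks, which mark short accessible stretches, and 1 list of nucleosome calls, each 150 bp wide. A gene was counted as occupied when an interval covered at least 1 bp within 500 bp of either annotated gene end. With 1 list a group there was no replicate error and no test between groups. Ranges in brackets are 95% Wilson intervals and cover counting error only. The read depth behind the lists is unknown, and the lists differ in length: the subnucleosome lists hold 473 to 56480 peaks. In such bulk material, fewer cells of a type and less signal per cell cannot be told apart. The gene list for meiotic cells had a subnucleosome peak at 5 of 6 members at MS in each background, and that for spermatids at 7 of 7 in SV129 and 6 of 7 in WT at RS. The first was also at 5 of 6 at RS in SV129 and WT, and the second at 4 of 7 at MS in both, so peaks at these markers did not separate the stages. At ES neither list had a peak in any background, so peaks could not serve to check the ES label. Of the other cells that the material could hold, Sertoli and Leydig markers had a peak at 2 of 11 genes in SV129 and WT at MS, at 1 of 11 in these backgrounds at Sp and at 0 elsewhere. Blood markers had a peak at 0 of 6 in all 12 lists, and epididymal epithelium markers at 1 of 6 or fewer. At ES at most 0.0968% of all genes had a peak, so a count of 0 there says little of these cells. Nucleosome calls at ES did lie at Wt1, Cyp17a1 and Star in each background and at the other Sertoli and Leydig markers in only some. Over all genes 41.4% in SV129, 37.4% in WT and 39.4% in cKO had a call at ES. The source of the calls at these markers was not tested. At Kat2a, MS peaks covered 120 bp in SV129, 107 bp in WT and 127 bp in cKO, but the ends of a gene say nothing of deleted exons.

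Subnucleosome peaks lay at most respiratory chain genes at MS in all 3 backgrounds and at RS in SV129 and WT, at fewer at RS in cKO, at 1 gene in a single list at ES, and at a part of them in sperm. At MS, 83 of 99 genes were occupied in SV129 (83.8%, 75.3 to 89.8), 88 in WT (88.9%, 81.2 to 93.7) and 75 in cKO (75.8%, 66.5 to 83.1). Over all protein-coding genes the shares were 46.0%, 48.7% and 34.1%. The respiratory chain thus stood above the background of all genes in each of the 3 lists. At RS, 80 genes were occupied in SV129 (80.8%, 72.0 to 87.4), 88 in WT (88.9%, 81.2 to 93.7) and 33 in cKO (33.3%, 24.8 to 43.1), against 41.8%, 48.3% and 11.8% of all genes. At ES no member was occupied in SV129 or WT (0 to 3.74%), and 1 was in cKO, against 0.0919%, 0.0484% and 0.0968% of all genes. The 1 gene in cKO (1.01%, 0.179 to 5.5) is a single count, too few to set against all genes. In sperm 49 genes were occupied in SV129 (49.5%, 39.9 to 59.2), 18 in WT (18.2%, 11.8 to 26.9) and 10 in cKO (10.1%, 5.58 to 17.6), against 22.1%, 8.45% and 3.53% of all genes.

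**Figure D1:**
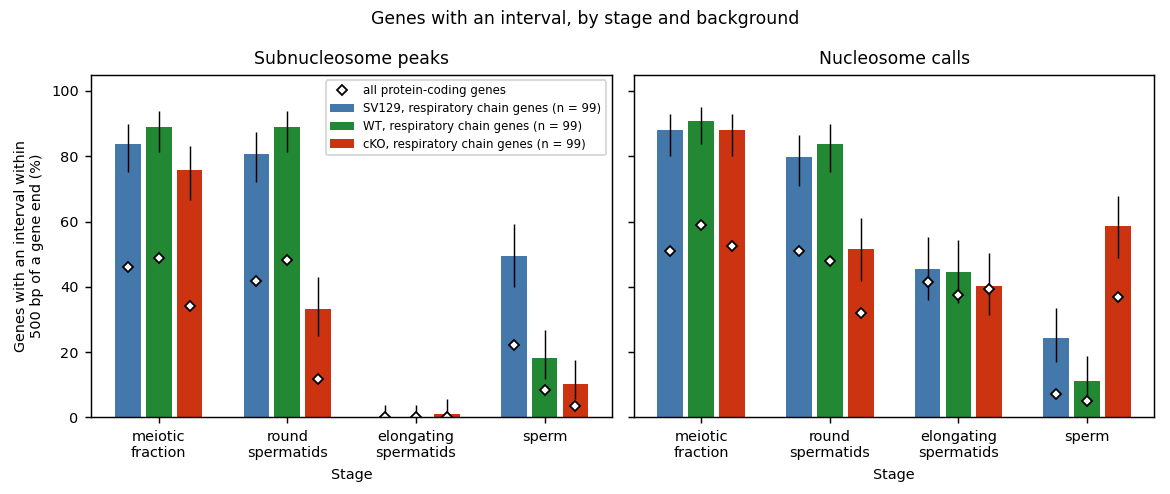
Percent of genes with a subnucleosome peak (left) or a nucleosome call (right) within 500 bp of a gene end, by stage (x axis) and background (colour). Bars are the 99 respiratory chain genes, error bars 95% Wilson intervals and diamonds all 20665 protein-coding genes; at MS the 3 subnucleosome bars stand at 83.8%, 88.9% and 75.8%, above the diamonds at 46.0%, 48.7% and 34.1%, while at ES the nucleosome bars and diamonds lie close together.

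Members differed from all genes in the share that was occupied more than in the length covered. Among occupied members the median cover at MS was 269 bp in SV129, 361 bp in WT and 205 bp in cKO, against 277, 352 and 204 bp among all occupied genes. Some of the windows are shared: 53 members have another protein-coding gene in the same window, so a peak there belongs to both. Of the 46 members without such a neighbour, the MS lists of SV129, WT and cKO had a peak at 38, 40 and 32, which is 82.6%, 87.0% and 69.6%.

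The complexes differed in how many of their genes had a peak at a gene end. At MS all 4 complex II genes were occupied in SV129 and WT, as were all 8 complex III genes and all 12 assembly factors, the proteins that help build complexes I and II. Complex I had a peak at 32 of 39 genes in SV129 and 35 in WT, and complex V, the ATP synthase, at 14 of 17 and 16. Complex IV, cytochrome c oxidase, had 11 of 17 in both (64.7%, 41.3 to 82.7). Of its 6 genes without a peak, 4 are isoforms of other tissues, namely Cox4i2 of lung, Cox6a2 and Cox7a1 of heart and muscle, and Cox8b. Cox5a and Cox7a2 also had none at their ends, but in both backgrounds a peak near a start site inside the gene. Such inner start sites also added Atp5g3 of complex V and Ndufa13 of complex I in both backgrounds, and Atp5d of complex V in SV129. In sperm of SV129 the order was similar, with 4 of 4 complex II and 7 of 8 complex III genes. Complex I had 17 of 39, complex V 7 of 17 and complex IV 5 of 17, against 22.1% of all genes. WT sperm did not keep this order. It had 1 of 4 in complex II, 3 of 8 in complex III and 5 of 39 in complex I. Complexes V and IV each had 3 of 17 there, against 8.45% of all genes. The intervals of these small sets are wide and overlap for most pairs of complexes.

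**Figure D2:**
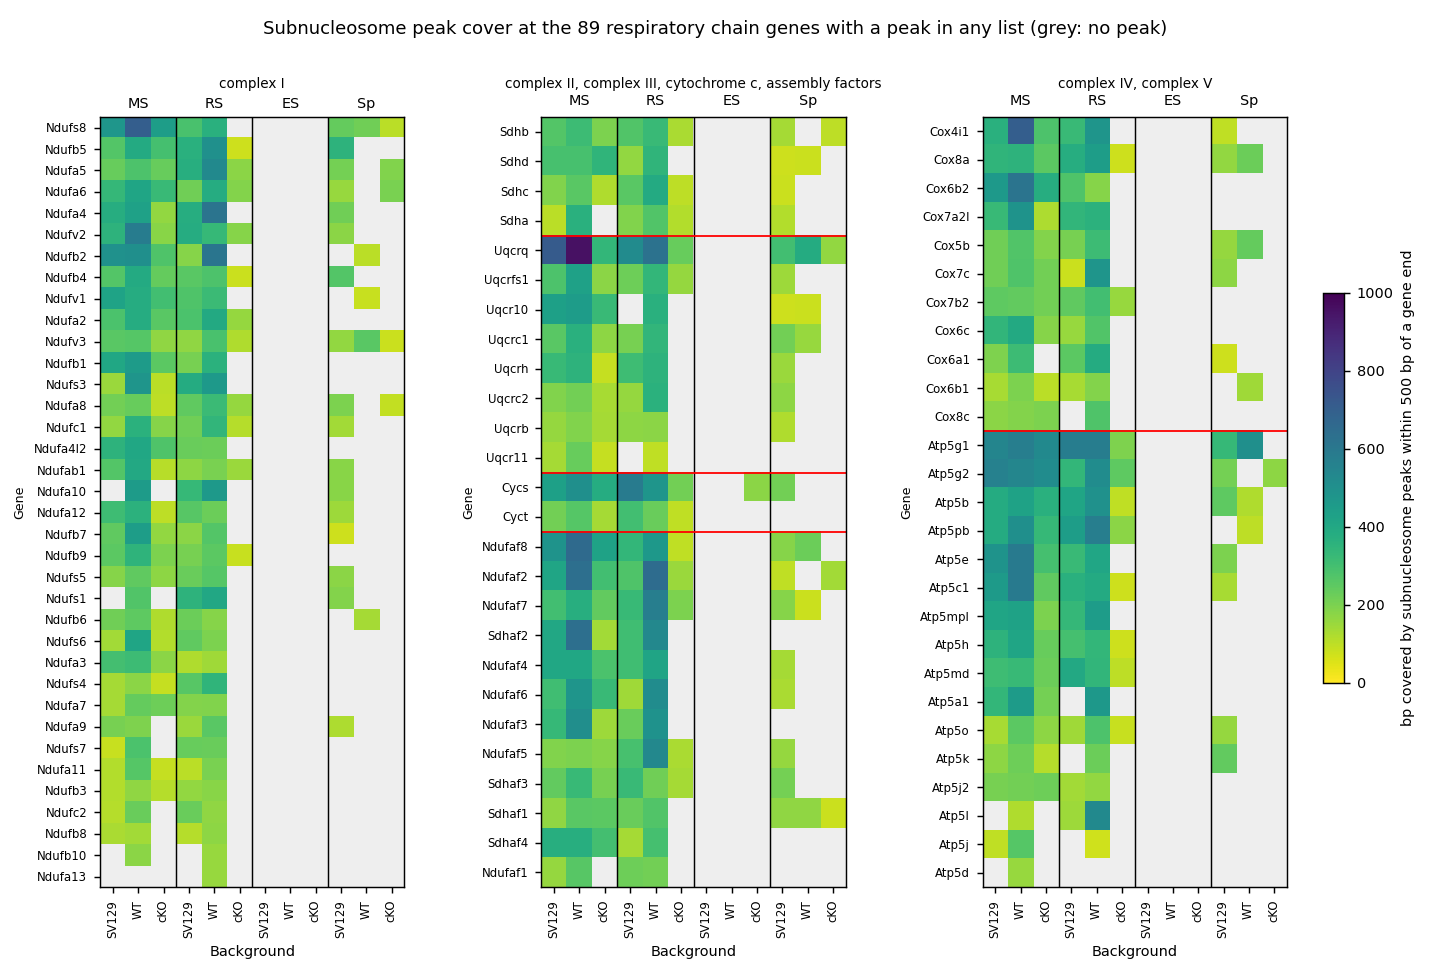
Length in bp covered by subnucleosome peaks within 500 bp of the gene ends (colour scale) for the 89 respiratory chain genes with a peak in any list (rows, grouped by complex with red lines between groups) in the 12 lists (columns, by stage and background); grey means no peak. The ES columns are grey but for Cycs in cKO, the cKO column at RS has 33 coloured cells.

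Cytochrome c has a testis isoform, Cyct, and a widely expressed one, Cycs, and both were open in meiotic and round cells. At Cyct, subnucleosome peaks covered 211 bp in SV129, 263 bp in WT and 133 bp in cKO at MS, and 301, 230 and 95 bp at RS. No peak was listed at Cyct in any ES or sperm list. Cycs had the longer cover in each of these 6 lists, with 433, 501 and 381 bp at MS and 583, 479 and 213 bp at RS. It was the only member with a peak at ES, 174 bp in cKO, and it had 213 bp in SV129 sperm and none in WT or cKO sperm. The peaks of both genes sat on the annotated start. At MS the peak centres at Cyct lay 51, 19 and 4 bp upstream of the start site in SV129, WT and cKO, while those at Cycs lay 0, 26 and 2 bp downstream.

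Cox6b2 and Cox6b1 code for testis and general forms of a complex IV subunit that faces cytochrome c. Cox6b2 had 463 bp in SV129, 616 bp in WT and 375 bp in cKO at MS, then 274, 180 and 0 bp at RS, and no peak in sperm. Cox6b1 had 130, 196 and 103 bp at MS, 132, 187 and 0 bp at RS, and 142 bp in WT sperm only. At MS, then, the testis form had the longer cover in every background, the reverse of the cytochrome c pair. Part of the cover at Cox6b2 came from a second peak inside the gene. In SV129 it was 276 bp wide and centred 411 bp downstream of the start, beside one of 236 bp centred 15 bp downstream, and cKO had a like pair at MS. Its window is shared with Fam71e2, whose part in the result was not tested.

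Cox7b2, a testis form of another complex IV subunit, had a peak centred 75 to 130 bp upstream of its start in all 3 backgrounds at both early stages, with 249, 240 and 214 bp at MS and 243, 303 and 155 bp at RS in SV129, WT and cKO. Cox8c, a testis form of subunit VIII, had 175, 185 and 196 bp at MS and at RS a peak of 277 bp in WT alone. Its general counterpart Cox8a had 345, 355 and 250 bp at MS, 376, 445 and 78 bp at RS, and 164 and 224 bp in SV129 and WT sperm. Ndufa4l2, a relative of Ndufa4 known to be induced by low oxygen, had 355, 406 and 275 bp at MS, but it shares windows with Shmt2 and Stac3. Cox4i1, the general form opposite Cox4i2, had 365, 702 and 280 bp at MS, and Cox6a1, opposite Cox6a2, had 192, 315 and 0 bp. Ndufa4 had 375, 427 and 164 bp at MS and shares a window with Phf14. Its only cKO peak at MS was centred 339 bp upstream of the start site.

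Of the 9 isoforms of restricted tissue range, 5 were occupied at MS in each background and none in sperm of any background (0 of 9, up to 29.9%). This count covers gene ends only. Ndufa4l2, which has no start site entered, had sperm peaks inside the gene of 76 bp in SV129 and 118 bp in WT. Of the 90 other members, 49 were occupied in SV129 sperm, 18 in WT and 10 in cKO. Among the 7 general counterparts, 5 had a sperm peak at a gene end in SV129, 2 in WT and 0 in cKO. Cox7a2, a counterpart with none at its ends, had sperm peaks near its inner start of 147 bp in SV129 and 79 bp in cKO. With 9 genes this is a description only: the sperm shares of all genes, 22.1%, 8.45% and 3.53%, lie within the interval of 0 of 9.

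**Figure D3:**
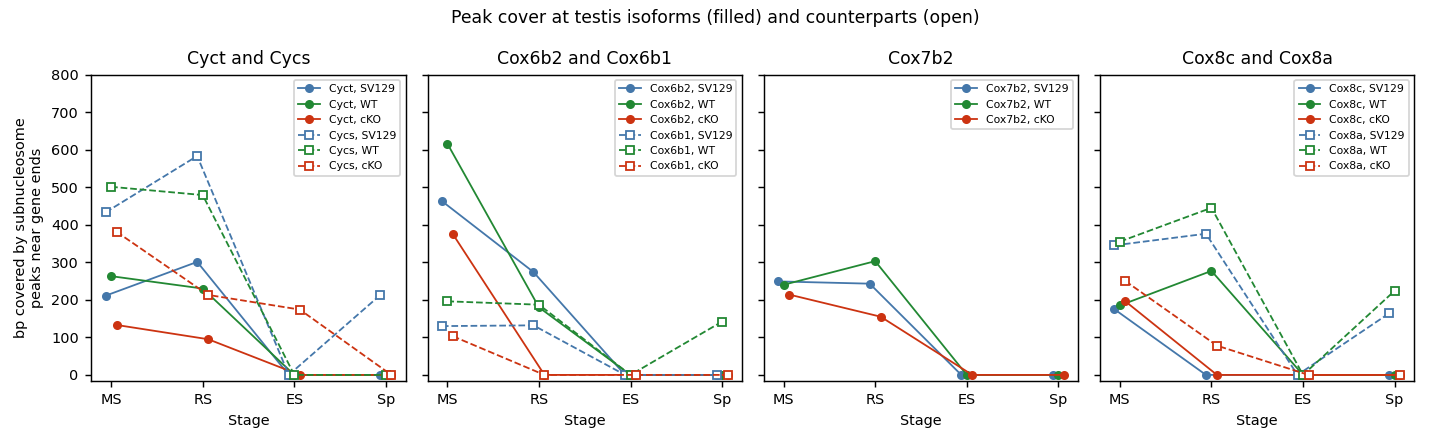
Length in bp covered by subnucleosome peaks within 500 bp of the gene ends (y axis) at 4 stages (x axis) for testis isoforms (filled circles, solid lines) and their general counterparts (open squares, dashed lines), coloured by background. The testis forms are at 0 in all sperm lists, whereas Cycs has 213 bp in SV129 sperm, Cox6b1 142 bp in WT sperm and Cox8a 164 and 224 bp in SV129 and WT sperm.

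The start regions of these isoforms are printed so that the testis and general forms can be compared where their peaks lie. They come from RefSeq, build GRCm38.p6, and run from 250 bases before to 50 after the start site, 5′ to 3′ on the gene's strand. Of the 99 members 81 have such an entry. Capitals mark matches, on either strand, to 6 short motifs: the NRF1 core GCGCATGCG, the ETS core CCGGAAG, the CRE palindrome TGACGTCA, the GC box GGGCGG, the TATA element TATAAA and the YY1 core AAGATGGCG. Cyct is at chr2:76360404-76360703 on the minus strand, Cycs at chr6:50566520-50566819 minus, Cox6b2 at chr7:4753045-4753344 minus, Cox6b1 at chr7:30626065-30626364 minus, and Cox7b2 at chr5:71548156-71548455 minus. Each window holds the start of the first exon.
Cyct: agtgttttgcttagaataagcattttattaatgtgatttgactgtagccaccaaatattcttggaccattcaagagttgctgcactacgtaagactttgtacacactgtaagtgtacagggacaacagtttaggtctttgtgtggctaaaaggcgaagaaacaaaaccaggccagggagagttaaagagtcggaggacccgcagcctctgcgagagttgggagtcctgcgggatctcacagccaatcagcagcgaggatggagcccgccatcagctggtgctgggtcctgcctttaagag
Cycs: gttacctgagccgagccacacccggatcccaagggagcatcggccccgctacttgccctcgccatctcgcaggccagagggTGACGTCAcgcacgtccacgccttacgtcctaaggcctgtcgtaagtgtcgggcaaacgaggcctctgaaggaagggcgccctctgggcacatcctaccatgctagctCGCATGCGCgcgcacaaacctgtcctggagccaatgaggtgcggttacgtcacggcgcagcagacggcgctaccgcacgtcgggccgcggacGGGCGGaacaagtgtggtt
Cox6b2: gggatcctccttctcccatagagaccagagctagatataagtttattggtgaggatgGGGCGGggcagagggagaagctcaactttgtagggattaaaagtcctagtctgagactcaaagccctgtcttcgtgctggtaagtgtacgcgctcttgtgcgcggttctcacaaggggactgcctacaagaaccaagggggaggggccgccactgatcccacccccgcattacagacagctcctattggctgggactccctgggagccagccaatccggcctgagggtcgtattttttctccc
Cox6b1: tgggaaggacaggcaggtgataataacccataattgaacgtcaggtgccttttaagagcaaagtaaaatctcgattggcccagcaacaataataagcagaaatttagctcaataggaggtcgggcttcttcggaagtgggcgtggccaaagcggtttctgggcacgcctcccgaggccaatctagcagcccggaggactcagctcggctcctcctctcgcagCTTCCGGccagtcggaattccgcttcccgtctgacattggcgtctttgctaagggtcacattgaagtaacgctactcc
Cox7b2: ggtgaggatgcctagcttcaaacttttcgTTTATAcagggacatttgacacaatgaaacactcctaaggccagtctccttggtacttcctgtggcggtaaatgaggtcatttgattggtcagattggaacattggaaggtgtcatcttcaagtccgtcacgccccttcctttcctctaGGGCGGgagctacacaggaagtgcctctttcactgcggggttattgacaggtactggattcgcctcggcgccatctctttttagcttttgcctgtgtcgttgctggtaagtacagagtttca

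The Cyct window holds 8 CpG and none of the 6 motifs, and the Cycs window holds 32 CpG, with a CRE palindrome 169 bases upstream, an NRF1 core 61 bases upstream and a GC box 31 bases downstream of the start. The Cox6b2 window has 10 CpG and a GC box 193 bases upstream, and the Cox6b1 window 17 CpG and an ETS core 28 bases upstream. The Cox7b2 window has 10 CpG, with a GC box 72 and a TATA element 221 bases upstream. A match describes the letters only, and its absence says only that these letters are not in this window. The 5 isoforms of restricted range with an entry had a median of 8 CpG, with a highest value of 10, and the 76 other members a median of 20.

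NRF1 and the ETS factor GABP are textbook activators of respiratory chain genes. The NRF1 core stood in 11 of 81 member windows (13.6%), among them Cycs, Uqcrc1 and Ndufa8, and in 2.45% of the 16457 windows of all genes. The ETS core stood in 21 (25.9% against 12.3%), among them Sdhb, Cox6b1 and Ndufs3, and the YY1 core in 7 (8.64% against 1.92%), among them Ndufs4 and Atp5j2. The CRE palindrome was in 5 windows (6.17% against 2.40%). The GC box (48.1% against 47.3%) and the TATA element (11.1% against 13.5%) were about as frequent as in all genes. Members also had more CpG in these windows, with a median of 20 against 14. In windows with 10 to 19 CpG, 30 of 34 members were occupied in SV129 at MS (88.2%) against 60.9% of all genes of that class, and with 20 to 29 CpG 30 of 33 (90.9%) against 74.2%. In sperm of SV129 the same classes gave 17 of 34 (50% against 31.3%) and 21 of 33 (63.6% against 41.6%). In these 2 classes of SV129 the members' share was above that of all genes. It was not so in every class and list: in WT sperm it was 6 of 33 (18.2% against 16.7%) with 20 to 29 CpG and 0 of 9 against 13.6% with 30 or more, and in cKO sperm 0 of 9 against 5.39% with 30 or more. With 5 to 9 CpG, 0 of 4 members were occupied in SV129 sperm against 9.15% of all genes. The part of CpG number in the members' higher share was not tested.

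Peaks lay at the start of the genes. Among the 81 members with known strand, 70 had a peak at the annotated start and 0 at the other end in SV129 at MS, and 74 and 0 in WT. Over all genes 2.43% and 2.90% had one at the other end. The median centre was 19 bp upstream of the start site in SV129, 12 bp in WT and 31 bp in cKO at MS, and 58, 60 and 32 bp upstream in sperm. In SV129 61.8% of the 89 centres within 500 bp lay upstream of the start at MS and 91.3% of 46 in sperm. All genes showed a like step, from 60.1% to 81%. Nucleosome calls at members at MS were densest on both flanks of the start. In all 3 backgrounds their centres were most frequent in the 50 bp around 175 bp upstream and around 125 bp downstream, as over all genes. In WT at RS the upstream maximum lay at the start itself, in the 50 bp around 25 bp upstream, again as over all genes.

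**Figure D4:**
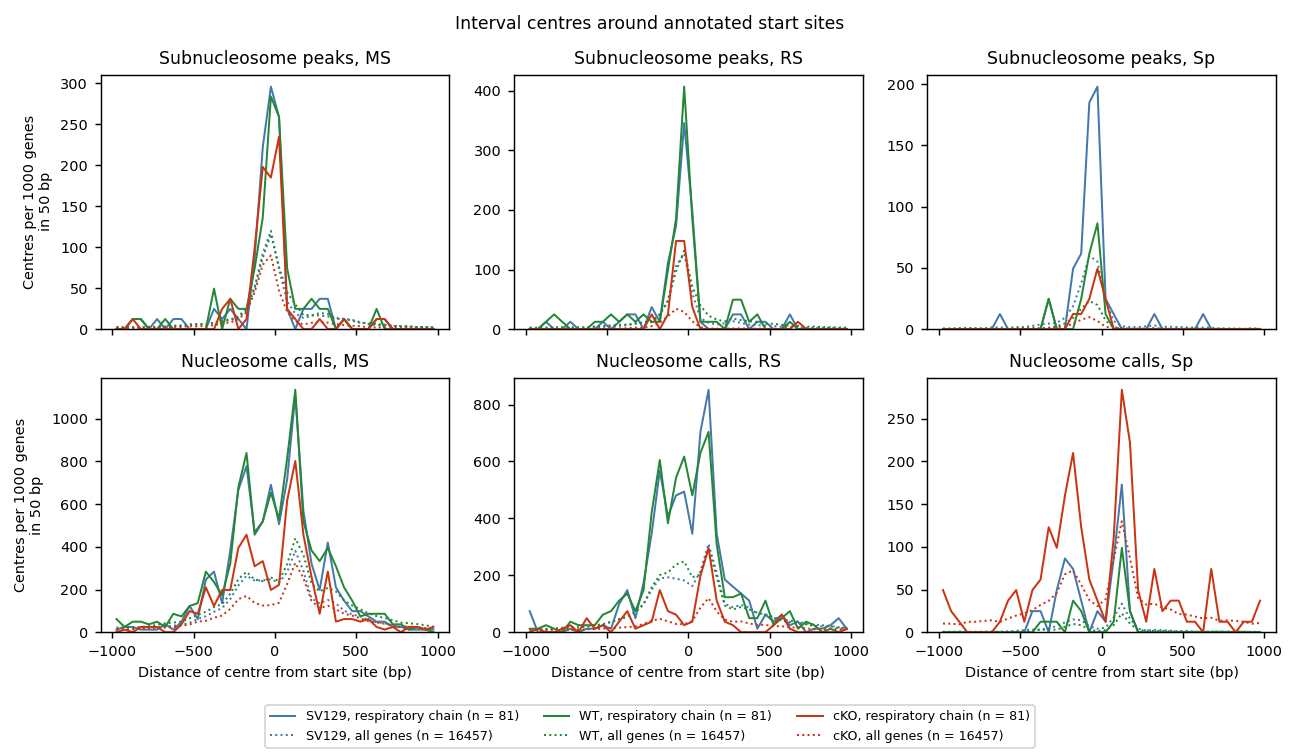
Centres of subnucleosome peaks (top) and nucleosome calls (bottom) per 1000 genes in 50 bp steps (y axis) by distance from the annotated start site in bp (x axis, negative is upstream) at MS, RS and Sp, for 81 respiratory chain genes (solid) and 16457 genes (dotted), coloured by background. Subnucleosome centres gather at the start, and nucleosome centres at MS are highest on its flanks.

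Of the 99 members, 10 had no subnucleosome peak at a gene end in any list, but some had one inside the annotated gene. RefSeq places the start site of Cox5a, a nuclear-coded subunit of complex IV, 3904 bp inside the annotated gene, that of Cox7a2, another complex IV subunit, 11569 bp inside, and that of Atp5g3, which codes for the rotor ring of ATP synthase, 1138 bp inside. Peaks stood at these inner starts: 319 bp in SV129, 762 bp in WT and 300 bp in cKO at MS for Cox5a, all overlapping the start site. The Cox5a window, at chr9:57520982-57521281 on the plus strand in GRCm38.p6, is shown since the rule's gene ends miss it. It holds 35 CpG and GC boxes 13 bases upstream and 36 downstream.
Cox5a: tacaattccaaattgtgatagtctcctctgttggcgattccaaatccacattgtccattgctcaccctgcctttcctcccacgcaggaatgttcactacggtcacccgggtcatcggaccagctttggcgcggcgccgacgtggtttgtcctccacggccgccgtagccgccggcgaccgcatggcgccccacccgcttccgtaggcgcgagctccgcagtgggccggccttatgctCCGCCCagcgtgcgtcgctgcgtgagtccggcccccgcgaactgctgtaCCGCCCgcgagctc

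Cox7a2 had a peak of 544 bp in SV129 centred 64 bp downstream of its inner start at MS, and it was found again at RS in all 3 backgrounds and in sperm of SV129 (147 bp) and cKO (79 bp). Atp5g3 had peaks of 269 bp in SV129 and 332 bp in WT at MS and of 122 bp in SV129 sperm. There were 6 with none at their ends, or at a start site where one was entered: the tissue isoforms Cox4i2, Cox6a2, Cox7a1 and Cox8b, and the short genes Ndufb4b and Ndufb4c, which lie apart from Ndufb4. With start sites added to gene ends, a choice made after these genes were seen, the SV129, WT and cKO lists had a peak at 88, 92 and 78 members at MS and at 85, 92 and 35 at RS. All genes then stood at 50.7%, 53.5% and 37.7% at MS and at 45.9%, 52.8% and 13% at RS.

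Most members with a peak at MS in the intact backgrounds also had one at RS. In SV129 77 of the 83 members with an MS peak also had an RS peak (92.8%, against 82.1% of all genes with an MS peak), and in WT 87 of 88 (98.9% against 89.1%). In cKO it was 32 of 75 (42.7% against 32.9%). No member had an RS peak without an MS peak in both intact backgrounds, and none the reverse. Of the sperm peaks, 47 of 49 in SV129, 18 of 18 in WT and 10 of 10 in cKO lay at members that also had an MS peak of that background. Across all genes that share was 92.4%, 96.6% and 96.8%.

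The genes with the most cover in the intact backgrounds come from several complexes. Uqcrq, a small subunit of complex III, led at MS with 712 bp in SV129, 954 bp in WT and 337 bp in cKO. At RS, where Atp5g1 led by the mean of SV129 and WT, Uqcrq had 517, 624 and 231 bp. It also had 304, 384 and 163 bp in sperm, and shares its window with Gdf9. Atp5g1 and Atp5g2, which code for the same rotor ring subunit, had 543, 574 and 524 bp and 562, 541 and 514 bp at MS. At both the 3 backgrounds were close at MS and apart at RS, where Atp5g1 had 575, 576 and 192 bp and Atp5g2 339, 513 and 247 bp. Ndufs8, an iron-sulfur subunit of complex I, had 476, 700 and 442 bp at MS and 287, 365 and 0 bp at RS. The assembly factors Ndufaf8 and Ndufaf2 had 488, 656 and 422 bp at MS and 275, 646 and 150 bp at RS, respectively. Among the longest at RS were also Atp5pb, a stalk subunit of ATP synthase, with 442, 574 and 175 bp, and Ndufa4 with 378, 617 and 0 bp. Part of the WT cover at Ndufa4 came from a peak 284 bp wide, centred 373 bp upstream of its start site. Ndufs8, Ndufaf8, Ndufaf2, Atp5pb and Ndufa4 also share a window with another protein-coding gene.

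In the cKO fewer members had a peak, a little fewer at MS and far fewer at RS. At MS 13 of the 88 members with a WT peak had none in cKO (14.8%), against 30.4% of all genes with a WT peak, and no member had a peak in cKO alone. Between the intact backgrounds, 5 of the same 88 had none in SV129 (5.68%), against 9.43% of all genes. At RS 55 of 88 had a peak in WT and none in cKO (62.5%), against 75.6% of all genes, and 8 of 88 had none in SV129 (9.09%), against 15.5%. In sperm 14 of 18 had none in cKO (77.8%), against 80.1% of all genes, and 5 had none in SV129 (27.8%), against 19.6%. These comparisons share the WT lists. At MS and RS, the members' share without a cKO peak was below that of all genes, as was their share without an SV129 peak. In sperm the share without a cKO peak was near that of all genes.

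List length moved with this result. The cKO list at RS holds 4075 peaks and the WT list 56480. With the WT list cut to its 4075 peaks of highest deposited score, a step chosen after the data were seen, WT had a peak at 28 members (28.3%) and cKO at 33 (33.3%), with 22 in common, so the direction of the difference turned. It turned for all genes too, with 9.67% in WT and 11.8% in cKO. At MS the same step, to 16087 peaks, left 79 members in WT against 75 in cKO, with 72 in common, and in sperm 4 against 10, with 1 in common. All genes had 36.7% against 34.1% at MS and 3.10% against 3.53% in sperm. Whether the shorter cKO lists come from depth or from the chromatin cannot be told apart in these files. The meiotic marker list moved with the members, from 5 of 6 in WT to 1 of 6 in cKO at RS, and the spermatid list from 6 of 7 to 1 of 7. Their part in the result was not tested.

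At RS the members without a cKO peak had, by their medians, lower scores and less cover in WT. There the 33 kept had a median cover of 380 bp and a median top score of 58.0 in WT, and the 55 others 293 bp and 36.1. Scores are the authors' own, on a scale that is not stated. When all genes with a WT peak were divided by score into 3 classes of about equal size, 45.5% of the members at RS and 51.1% at MS fell into the highest. In that class 15 of 40 members had no cKO peak at RS (37.5%, 24.2 to 53.0), against 45.6% of all genes. In the middle class it was 20 of 27 (74.1%, 55.3 to 86.8) against 82.6%, and in the lowest 20 of 21 (95.2%, 77.3 to 99.2) against 98.5%. Within a class the members' interval included the value of all genes in each case. At MS the same held in the middle and highest classes, where 6 of 29 (20.7%) and 0 of 45 (up to 7.87%) had none in cKO against 19% and 2.56%, and in the lowest class, with 7 of 14 (50%, 26.8 to 73.2) against 69.7%.

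**Figure D5:**
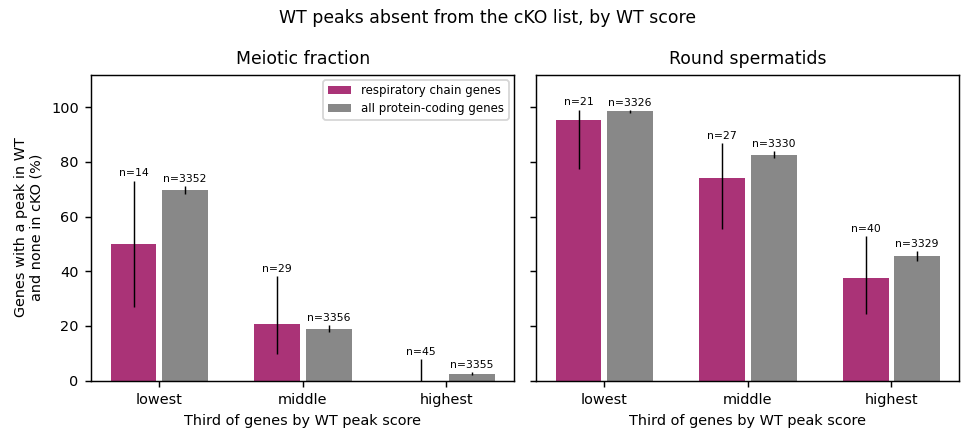
Percent of genes with a WT subnucleosome peak and none in cKO (y axis) in 3 classes of genes by the highest deposited score of their WT peaks (x axis), for respiratory chain genes and all protein-coding genes, at MS (left) and RS (right); error bars are 95% Wilson intervals and n is the number of genes. The share falls with score in both sets, at RS from 95.2% to 37.5% of members and from 98.5% to 45.6% of all genes.

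The 8 members with an MS peak in both intact backgrounds and none in cKO were Atp5j, Cox6a1, Ndufa9, Ndufaf1, Ndufb8, Ndufc2, Ndufs7 and Sdha. Sdha, the flavoprotein of complex II, had 105 bp in SV129, 367 bp in WT and 0 in cKO at MS, yet 190, 270 and 114 bp at RS, so a cKO peak was listed at RS and not at MS. Ndufs7, an iron-sulfur subunit of complex I, had 83, 282 and 0 bp at MS and 234, 230 and 0 bp at RS. Cox6a1 had 192, 315 and 0 bp at MS and 251, 383 and 0 bp at RS. Atp5j, which shares a window with Gabpa, had 95 and 263 bp at MS in SV129 and WT, and in cKO a peak was found at its start site once that was added to the gene ends. The other 4 had 110 to 260 bp in the intact lists at MS.

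By complex, the members that kept a WT peak in cKO at RS were 2 of 2 for cytochrome c, 3 of 4 for complex II, 8 of 15 for complex V, 5 of 12 among the assembly factors, 11 of 36 for complex I, 2 of 8 for complex III and 2 of 11 for complex IV. Over all genes 2438 of 9985 kept one, and complexes I, III and IV lay near that share. The 10 with the most cover in cKO at RS were Atp5g2, Uqcrq, Cycs, Ndufaf7, Atp5g1, Ndufa6, Ndufv2, Atp5pb, Ndufa5 and Ndufa2, from 247 bp at Atp5g2 to 160 bp at Ndufa2. All these counts are of peaks at gene ends. The complex IV genes that kept one there were the testis form Cox7b2 and the general form Cox8a. Cox7a2, with none at its ends, had peaks near its inner start at RS of 500 bp in WT and 199 bp in cKO.

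In sperm 4 members had a peak in all 3 backgrounds. These were Uqcrq, Ndufs8, Ndufv3, a small subunit of complex I, and Sdhaf1, an assembly factor of complex II. Ndufs8 had 237 bp in SV129, 218 bp in WT and 104 bp in cKO sperm, Ndufv3 163, 254 and 79 bp, and Sdhaf1 166, 166 and 82 bp. Cover was thus shortest in cKO at each of the 4. Ndufv3 and Uqcrq had peaks at MS, RS and Sp in all 3 backgrounds. A further 9 members had a sperm peak in both intact backgrounds, with Atp5g1 highest in WT at 503 bp. All 10 members with a cKO sperm peak also had one in SV129 sperm, and 6 of them (60%) had none in WT sperm. All genes were close to this, with 714 of 730 also in SV129 and 52.5% with none in WT.

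Nucleosome calls at the same genes followed another order of stages and backgrounds. At MS 87 of 99 members had a call in SV129 (87.9%, 80.0 to 92.9), 90 in WT (90.9%, 83.6 to 95.1) and 87 in cKO (87.9%, 80.0 to 92.9), against 51.1%, 58.8% and 52.5% of all genes. At RS it was 79 (79.8%, 70.8 to 86.5), 83 (83.8%, 75.3 to 89.8) and 51 (51.5%, 41.8 to 61.1), against 51.0%, 47.8% and 31.9%. At ES 45, 44 and 40 members had one (45.5%, 44.4% and 40.4%), close to 41.4%, 37.4% and 39.4% of all genes. In sperm it was 24 in SV129 (24.2%, 16.9 to 33.5), 11 in WT (11.1%, 6.32 to 18.8) and 58 in cKO (58.6%, 48.7 to 67.8), against 7.16%, 4.90% and 36.9%. Members stood above the background at MS, RS and Sp, and not at ES. Nearly every member with a peak also had a call at MS, namely 82 of 83 in SV129, 88 of 88 in WT and 74 of 75 in cKO. So did most of all genes with a peak, with 91.5%, 94.6% and 90.8%.

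Calls covered more of the occupied members than of other occupied genes at MS and RS in the intact lists. The median was 538 bp in SV129 and 609 bp in WT at MS, against 400 and 455 bp, and 430 and 455 bp at RS, against 320 and 350 bp. In cKO it was 400 bp at MS against 332 bp, and at RS 177 bp against 190 bp.

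At MS 5 of 90 members with a WT call had none in cKO (5.56%), against 20.1% of all genes, and 3 had none in SV129 (3.33%), against 17.4%. At RS 34 of 83 had none in cKO (41.0%), against 49.4%, and 7 had none in SV129 (8.43%), against 13.7%. In sperm the cKO list was longer, with 347951 calls against 8628 in WT and 13615 in SV129, and all 11 members with a WT call had one in cKO too. The cKO list added 47 members to these, which is 81% of its 58. Over all genes 780 of 1012 with a WT call had one in cKO, and 89.8% of the genes in the cKO list were added, so all genes showed such a gain. Cycs and Ndufb1, a small subunit of complex I, were the members with a call in all 12 lists.

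The 10 members with a sperm call in both SV129 and WT were Cycs, Ndufb1, Ndufb2, Ndufb3, Ndufa12, Ndufs4, Sdhd, Uqcrh, Atp5a1 and Atp5pb, and each also had one in cKO. At Ndufb1 the calls covered 328 bp in SV129, 348 bp in WT and 575 bp in cKO sperm. At Cycs they covered 150, 170 and 493 bp. Cyct, by contrast, had calls of 380, 485 and 340 bp at MS and of 340, 470 and 150 bp at RS, and none at ES or in sperm. Of the 9 isoforms of restricted range 1 had a sperm call, Cox4i2, in cKO.

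Related genes outside the rule were read in the same way. Of 19 assembly factors of complexes III and IV, such as Cox11, Surf1 and Bcs1l, all had a peak at MS in SV129 and WT and 10 in cKO, at RS 18, 18 and 4, and in sperm 11, 4 and 1. Of 16 genes of the TCA cycle, which feeds electrons to the chain, 15, 15 and 14 had one at MS, 14, 15 and 6 at RS, and 5, 3 and 2 in sperm. Of 16 regulators of respiratory and mitochondrial genes, such as Nrf1, Gabpa and Tfam, 12 had one in each background at MS, 12, 13 and 6 at RS, and 9, 4 and 3 in sperm. Over all genes the shares in SV129, WT and cKO were 46.0%, 48.7% and 34.1% at MS. At RS they were 41.8%, 48.3% and 11.8%, and in sperm 22.1%, 8.45% and 3.53%. The cKO counts of 10 and 4 assembly factors include Cox18, with cover of only 5 bp at MS and 13 bp at RS. Each set had fewer peaks in cKO than in WT at RS, as all genes did.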

How the data were processed

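Each of the 12 groups, from 34 libraries, has 1 deposited interval list for nucleosomes and 1 for subnucleosome fragments, so 24 in all, and no values per library were used here. The submitters' processing notes name STAR 2.5.2a, MACS2 2.1.0.20140616 and the mouse build GRCm38 (mm10); their roles, the division of fragments, the calling and the way replicates were combined are not given in the sources used here. Per the labels, Tn5 was used at 2.5 and 5 units in parallel with 12 PCR cycles. Reactions held 100000 cells at MS and Sp and 200000 at RS and ES. Each interval carries a score that the authors deposited, on an unstated scale. It is 0 throughout the SV129 subnucleosome lists, and peak names in the WT and cKO subnucleosome lists carry 1 library number only.

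Gene positions, symbols and start regions came from RefSeq, build GRCm38.p6, and 81 of 99 members and 16457 of 20665 genes had a start region. With no strand in the gene table, windows of 500 bp on either side of both gene ends were read, merged where they overlap, and 1 bp of cover counted. Cover is the length of merged intervals. Code ran in Python 3.11.15 with numpy 2.4.6, pandas 2.3.3 and statsmodels 0.14.6 (Wilson intervals). The cover functions were tested on simulated intervals on 2030 genes, where 200 of 200 seeded genes were recovered.

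Named genes are all isoforms of the pairs, members with a sperm peak in all 3 backgrounds, members with an MS peak in SV129 and WT and none in cKO or with an RS but no MS peak in both, any with an ES peak, those with a sperm call in SV129 and WT, the 6 with most cover at MS and at RS, those with no peak in any list, and the 10 with most cover in cKO at RS. Examples given for complexes, motifs and lists outside the rule were chosen after their values were seen. One gene that the naming rule picks is not reported here by name. The members and lists were chosen with earlier results of these data known; the germ cell marker lists and the targeted gene were added after the files were read. Alternatives were windows of 250 and 1000 bp, at least 75 bp of cover, annotated starts only, the upper 50% of peaks by score, nucleosome lists without their most common score and, added later, start sites beside gene ends and WT lists cut to the length of the cKO lists.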

Additional observations from a re-analysis of the deposited data

How the results depend on the processing

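Counts of members were recomputed under 163 alternatives for 38 results, and 156 stayed within 1.5 times the value reported. Windows of 250 and 1000 bp, at least 75 bp of cover, nucleosome lists without their most common score, and start sites beside gene ends moved none of the results run with them by more. With the upper 50% of peaks by score, the count of members with a peak became 18 in cKO round spermatids, 0 in cKO elongating spermatids, 10 in WT sperm and 2 in cKO sperm. With WT lists cut to the length of the cKO lists, it became 28 in WT round spermatids, below the 33 of cKO, and 4 in WT sperm, below the 10 of cKO; the construction keeps fewer peaks. With annotated starts only, in the 81 members with strand, 27 had a nucleosome call in WT elongating spermatids. No paired analysis was possible because each group has 1 list that carries no replicate, and for the same reason no replicate could be left out. Limits are the unknown depth, lists of unequal length, shared windows, and gene ends that are not always start sites.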

Other observations

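The 3 respiratory chain genes on X differed among themselves. Ndufb11, a complex I subunit, had 308 bp of subnucleosome peaks in SV129, 227 bp in WT and 99 bp in cKO in the meiotic fraction, and 85 bp in WT round spermatids alone. Ndufa1, another complex I subunit, had 215, 311 and 171 bp in the meiotic fraction and no peak later. Cox7b, the general form opposite the testis gene Cox7b2, had neither a peak nor a nucleosome call at its gene ends in any of the 24 lists.

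Of 22 pseudogenes on chromosomes 1 to 19 with names that fit the rule, 1 had a subnucleosome peak in any list. It was Ndufa11b, a transcribed pseudogene, with 85 bp in SV129 and none in WT or cKO in the meiotic fraction, and 239, 290 and 125 bp in SV129, WT and cKO round spermatids. Neither Ndufa11b nor any of the 99 members had a round spermatid peak without a meiotic one in both SV129 and WT. In WT taken alone Ndufa11b did, and so did the member Ndufa13, with 0 bp at its gene ends in the meiotic fraction and 156 bp in round spermatids. Inside the gene, though, Ndufa13 had a WT peak of 138 bp in the meiotic fraction, centred 335 bp downstream of its start site. It also shares a window with Tssk6 and Yjefn3. Ndufa11b was named after its values were seen, and no test was made.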
